A study of Homo sapiens with 10 samples.

Results

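The genes described here code for the BET proteins BRD2 and BRD3, for the kinase CDK9 and its cyclins CCNT1 and CCNT2, which form P-TEFb, and for HEXIM1, HEXIM2 and LARP7, which hold P-TEFb inactive. They were chosen by symbol, and the 8 symbols were found as 8 of the 23284 genes of the expression table. The values come from K562 cells, an established human leukemia cell line with erythroid features, cultured for 48 h with DMSO (the vehicle), with CBP30 at 2 or 5 µM, or with I-CBP112 at 2 or 5 µM. CBP30 and I-CBP112 are small molecules that occupy the bromodomains of the acetyltransferases CREBBP and EP300. Each of the 5 conditions had 2 samples, polyadenylated RNA was sequenced, and the deposited unit is FPKM, which scales a gene's fragments to the length of its transcripts and to the size of the library. The labels call the 2 samples of a condition biological replicates and say no more of how the cultures were kept apart.

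BET proteins bind acetylated histones through paired bromodomains and help to bring P-TEFb to genes, where CDK9 phosphorylates the paused RNA polymerase II and releases it into elongation. Much of the P-TEFb of a cell sits in an inactive complex with the 7SK RNA, in which LARP7 stabilizes the RNA and HEXIM1 or HEXIM2 blocks the kinase. The transcripts of HEXIM1 and BRD2 are known to rise when BET bromodomains are inhibited, and HEXIM1 is used as a marker of BET inhibition. The comparison with DMSO therefore asks whether transcripts with that known behaviour, and those of their partners, changed with inhibitors made for CREBBP and EP300.

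With 5 µM CBP30, HEXIM1 reached 1.76 times its DMSO level and BRD2 1.29 times, while BRD3 fell to 79.0% of DMSO. CDK9 reached 1.25 times its DMSO level, a call made in 10 of 20 alternative ways of processing the data. With 2 µM CBP30, HEXIM1 reached 1.43 times its DMSO level and BRD3 fell to 85.5%, a fall called in 5 of 20 alternatives. BRD2 stood at 1.03 times DMSO with 2 µM CBP30, which did not pass the test. With I-CBP112 no member passed the test at either concentration, beside 7.12% of all genes tested at 5 µM and 1.6% at 2 µM. With CBP30 these shares were 46.6% at 5 µM and 32.1% at 2 µM. LARP7 lay between 23.5 and 26.5 FPKM in all 10 samples.

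**Figure D1:**
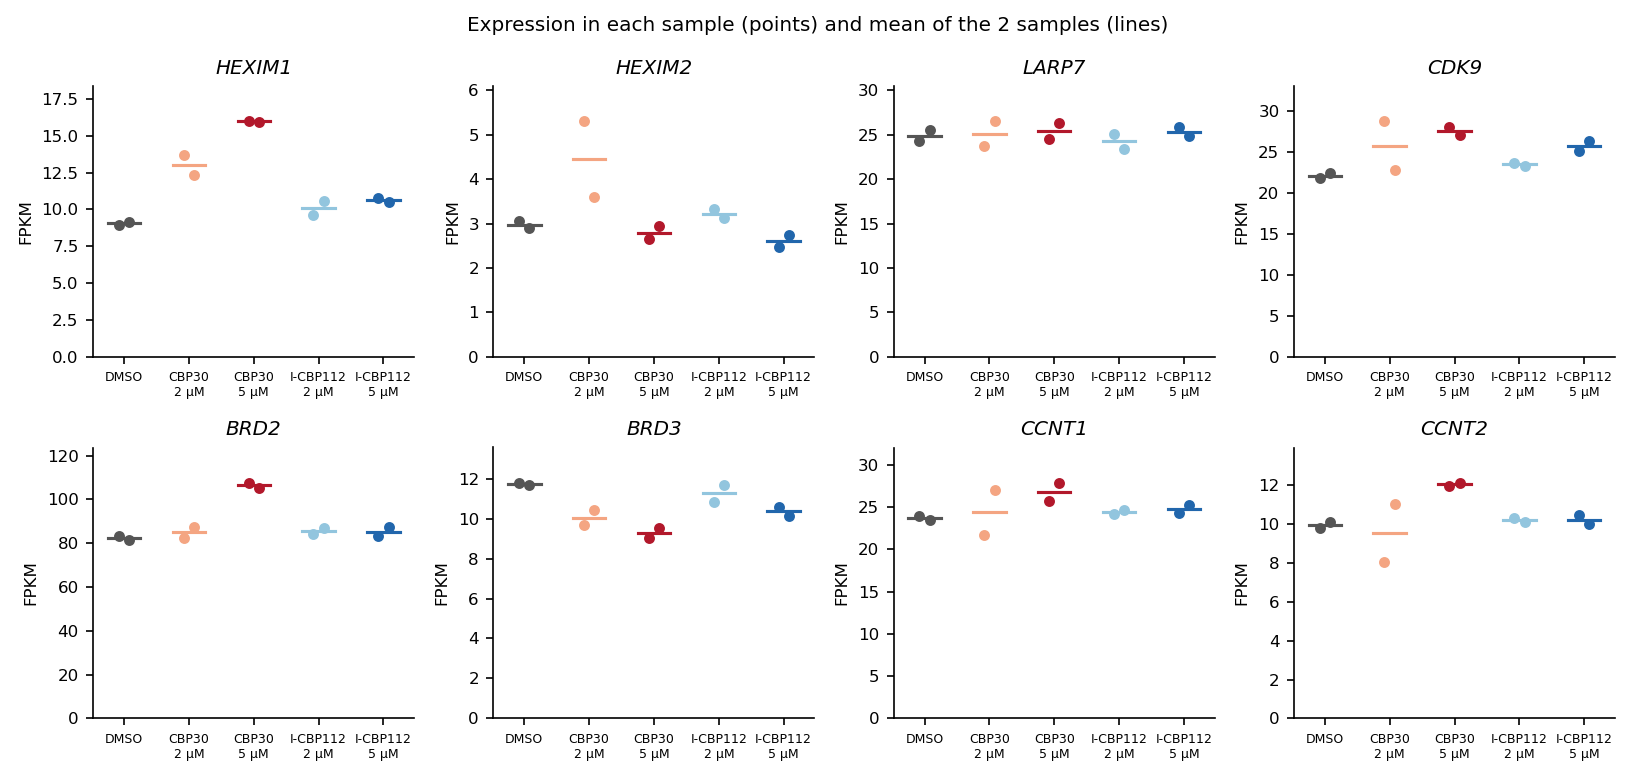
FPKM (y axis, from 0) of each of the 8 genes in the 5 conditions (x axis). Points are the 2 samples of a condition and lines their mean. HEXIM1 was at 16.0 FPKM in both samples with 5 µM CBP30 and at 8.98 and 9.14 FPKM with DMSO, and the samples with 2 µM CBP30 lay apart from each other for HEXIM2, CDK9, CCNT1 and CCNT2.

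Read counts cannot be had from FPKM, and absolute depth is therefore unknown. In 643 genes with long transcripts and very low values, seen in only a few libraries, each value above 0 was taken as a single read. On that assumption, which was not tested, the relative depth of the libraries lay between 0.944 and 1.06 times their mean. Replicate 1 of 2 µM CBP30 stood apart. Against DMSO, its median difference on the log2(FPKM + 1) scale was 0.26 over the fifth of genes with the shortest transcripts and -0.28 over the fifth with the longest, among 12135 genes with a known length. Both samples with 5 µM CBP30 had the opposite, smaller pattern, with -0.12 and -0.11 over the shortest and 0.11 in each over the longest. In replicate 1 of 2 µM CBP30, EEF1A1, a translation factor that every cell uses, was also listed at 0, with 5338 to 6661 FPKM in the other samples, so a value of 0 in this table can be a failed estimate. The 6 K562 markers were present in every sample. Their summed level lay between 1647 and 1690 FPKM in the DMSO samples. At 5 µM CBP30 it was 539 to 565 FPKM, and limma called 6 of 6 lower, beside 25.4% of all genes. The lower CBP30 concentration gave sums of 574 to 759 FPKM and 5 of 6 called lower, beside 16.3% of all genes. I-CBP112 samples had sums of 942 to 1048 FPKM at 2 µM, where 0 of 6 were called, beside 1.6% of all genes. At 5 µM I-CBP112 the sums were 910 to 990 FPKM. There 3 of 6 were called lower, beside 419 of all 12788 genes tested called lower and 7.12% called in either direction. Of 6 markers of other cell types, the B cell gene MS4A1 was at 0 throughout and EPCAM, at 31.8 to 59.7 FPKM, made up most of the sum, which was 61.0 to 61.9 FPKM with DMSO and 36.2 to 37.5 FPKM with 5 µM CBP30. Only 3 of these 6 were abundant enough to be tested, and with 5 µM CBP30 EPCAM fell by 0.85 on the log2 scale (limma, adjusted p = 0.000989) while the T cell gene CD3E rose by 1.01 (adjusted p = 0.000529), from 1.04 and 1.16 FPKM with DMSO to 3.15 and 3.31 FPKM. CD3E also rose with 2 µM CBP30, by 0.52 (limma, adjusted p = 0.0165). For I-CBP112, limma called 0 of the 3 tested markers of other cell types in either direction, beside the same 1.6% and 7.12% of all genes. The part of these shifts in the changes described here was not tested. In bulk RNA, fewer cells of a kind and less RNA per cell cannot be told apart.

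In DMSO the members spanned a wide range of levels per transcript length. BRD2 was the most abundant at 82.3 ± 1.01 FPKM (SD, n = 2), above 91.9% of the 12788 genes tested (those averaging 0.5 FPKM or more over all samples). LARP7, CCNT1 and CDK9 followed at 24.9, 23.8 and 22.1 FPKM, close together but with no overlap between the samples of neighbours. BRD3 stood at 11.8, CCNT2 at 9.98 and HEXIM1 at 9.06 FPKM, which placed HEXIM1 above 50.1% of the tested genes. HEXIM2 was the lowest member at 2.97 FPKM, above 21.4% of them. With 5 µM CBP30, HEXIM1 stood above BRD3 and CCNT2, the reverse of its order in DMSO. BRDT, the BET gene of the testis, was at 0.0389 to 0.128 FPKM in all samples and was not tested.

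All genes tested were compared with limma on log2(FPKM + 1) in a single fit of the 10 samples, and log2 fold changes are on that scale, which understates the change of low genes. A gene was called at a Benjamini-Hochberg adjusted p under 0.05. The 4 comparisons with DMSO share the same DMSO samples. With 5 µM CBP30, 3 of the 8 members were called higher and 1 lower. Of all genes tested, 46.6% were called there, 21.2% higher and 25.4% lower, so 4 of 8 is close to the background. The median log2 fold change was 0.21 over the members and -0.01 over all genes tested. With 2 µM CBP30, 1 member was called higher and 1 lower, against 15.9% and 16.3% of all genes, together 32.1%, and the medians were 0.04 for the members and 0.01 for all genes. With 5 µM I-CBP112, limma called 0 of 8 members at the adjusted threshold and 2 at an unadjusted p under 0.05, beside 7.12% of all genes called. With 2 µM I-CBP112, limma called 0 members, also at an unadjusted p under 0.05, beside 1.6% of all genes called.

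**Figure D2:**
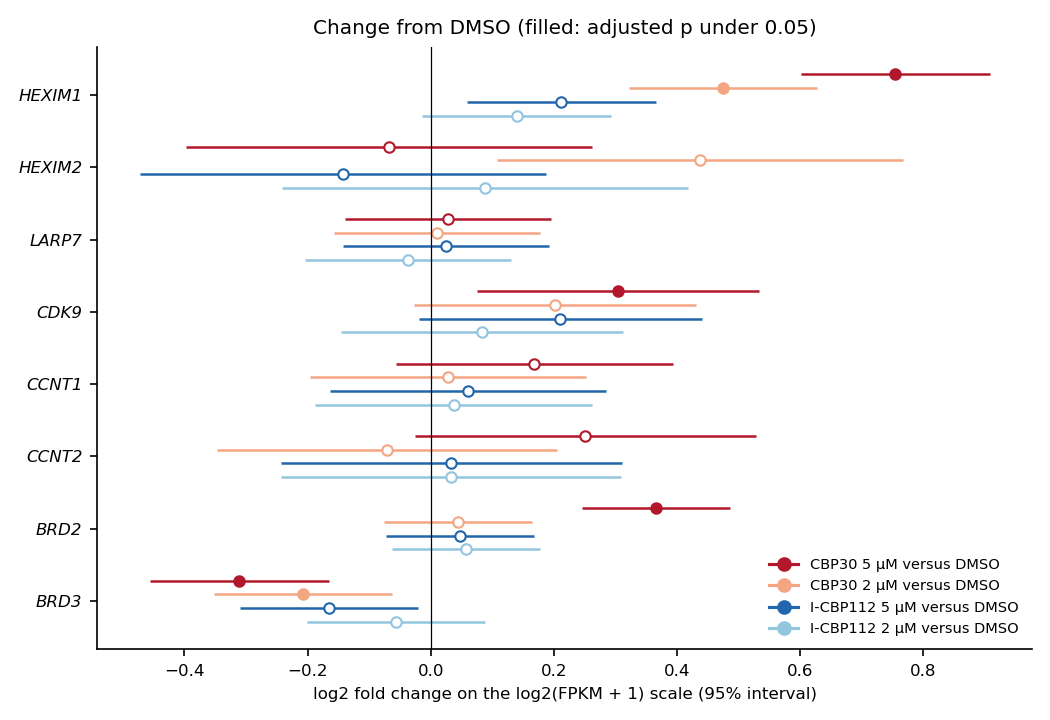
Log2 fold change from DMSO on the log2(FPKM + 1) scale (x axis) of the 8 genes (y axis), with 95% intervals from limma, for the 4 treatments. Filled points passed an adjusted p under 0.05, which held for HEXIM1 and BRD3 with both concentrations of CBP30 and for BRD2 and CDK9 with 5 µM CBP30.

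BRD2 and BRD3 are the BET genes expressed broadly across tissues that are described here, and their transcripts moved in opposite directions with 5 µM CBP30. BRD2 lies on chromosome 6 at 32936371 to 32949282 (hg19, plus strand) and BRD3 on chromosome 9 at 136895427 to 136933657 (minus strand). BRD2 was at 83.1 and 81.6 FPKM with DMSO and at 108 and 105 FPKM with 5 µM CBP30. It was at 82.5 and 87.5 FPKM with 2 µM CBP30, at 84.3 and 87.1 FPKM with 2 µM I-CBP112, and at 83.1 and 87.3 FPKM with 5 µM I-CBP112. The samples with 5 µM CBP30 stood above all others, and the remaining 8 samples lay within 81.6 to 87.5 FPKM. The log2 fold change of BRD2 with 5 µM CBP30 was 0.37 ± 0.05 (SE; limma, adjusted p = 0.00113). Its intervals reached from -0.08 to 0.16 with 2 µM CBP30, from -0.06 to 0.18 with 2 µM I-CBP112 and from -0.07 to 0.17 with 5 µM I-CBP112. With the trend of each sample with transcript length removed, BRD2 was also called with 2 µM CBP30, at 0.14 (limma, adjusted p = 0.0492). This was 1 of 20 alternatives. No other called BRD2 there, also not the same fit with the replicate block. BRD2 shares 577 exon bases with an unnamed antisense gene and 243 with an unnamed gene on its own strand.

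BRD3 was at 11.8 and 11.7 FPKM with DMSO, at 9.67 and 10.4 FPKM with 2 µM CBP30 and at 9.04 and 9.53 FPKM with 5 µM CBP30. With I-CBP112 it was at 10.8 and 11.7 FPKM at 2 µM and at 10.6 and 10.2 FPKM at 5 µM. All treated samples lay below both DMSO samples, the higher sample with 2 µM I-CBP112 only marginally so, and the lowest were those with 5 µM CBP30. BRD3 fell by 0.31 ± 0.06 on the log2 scale with 5 µM CBP30 (limma, adjusted p = 0.00545) and by 0.21 ± 0.06 with 2 µM CBP30 (limma, adjusted p = 0.0396). The fall with 2 µM was called in 5 of 20 alternatives and, of the 10 fits that left out 1 sample, only in that without replicate 2 of 2 µM CBP30, the adjusted p of the other 9 being 0.0529 to 0.148. With 5 µM I-CBP112 its log2 difference was -0.17, with an interval of -0.31 to -0.02 and an adjusted p of 0.170 (limma). BRD3 shares 1283 exon bases with BRD3OS on the other strand, and the strand setting of the counting is not given in the sources used here, so reads of the pair may not have been told apart.

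The part of a BRD2 promoter that lies before its most upstream RefSeq start is shown because BRD2 rose with HEXIM1 at 5 µM CBP30. The RefSeq sequence (table build GRCh38.p14) has a single exact match in hg19 at chr6:32936121-32936370 on the plus strand, and the gene has 4 listed starts. Capitals mark the GC box, spelled GGGCGG and found here as its reverse complement, which begins 146 bases before the start. No other motif of the search described with HEXIM1 has a match in these 250 bases, of which 74% are G or C. The windows of the other BRD2 starts are not shown.
BRD2: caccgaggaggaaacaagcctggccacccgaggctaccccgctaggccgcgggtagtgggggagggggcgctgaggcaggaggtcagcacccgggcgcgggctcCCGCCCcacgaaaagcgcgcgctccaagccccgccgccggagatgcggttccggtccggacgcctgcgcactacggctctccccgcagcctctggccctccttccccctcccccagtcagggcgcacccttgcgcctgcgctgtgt

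HEXIM1 rose with both concentrations of CBP30, and HEXIM2 passed the test against DMSO with neither, though some alternatives called it with 2 µM. HEXIM1 (chromosome 17, 43225842 to 43229466, hg19, plus strand) is a gene with a single annotated transcript, and HEXIM2 starts 8600 bases downstream of its end (43238067 to 43247407). HEXIM1 was at 8.98 and 9.14 FPKM with DMSO, at 13.7 and 12.3 FPKM with 2 µM CBP30 and at 16.0 FPKM in both samples with 5 µM CBP30. The I-CBP112 samples lay at 9.64 and 10.5 FPKM at 2 µM and at 10.8 and 10.5 FPKM at 5 µM. All 4 CBP30 samples stood above all I-CBP112 samples, and these stood above both DMSO samples. The log2 fold change of HEXIM1 was 0.75 ± 0.07 with 5 µM CBP30 (SE; limma, adjusted p = 0.000139) and 0.47 ± 0.07 with 2 µM CBP30 (limma, adjusted p = 0.00232). It was 0.21 with 5 µM I-CBP112, with an interval of 0.06 to 0.37 and an adjusted p of 0.108 (limma). It was 0.14 with 2 µM I-CBP112, with an interval of -0.01 to 0.29 (limma, adjusted p = 0.413). At 5 µM I-CBP112, HEXIM1 was called without replicate 1 or without replicate 2 of 2 µM CBP30 (limma, adjusted p = 0.0242 in each fit), and also with the length trend removed (adjusted p = 0.0475).

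The 250 bases before the HEXIM1 start, shown for the member with the largest rise, lie at chr17:43225592-43225841 (hg19, plus strand; RefSeq sequence, a single exact match). Capitals mark motifs read on both strands, none of which overlap here, each placed by the distance of its first base from the start. The binding motif of GATA factors, searched as AGATAA, begins 108 bases before it. The box named CCAAT for its letters occurs at 230 and 149 bases. The GC box occurs at 124 and 51 bases. The box bound by the TATA-binding protein, searched as TATAAA, begins at 29 bases. The E-box, spelled CACGTG, has no match.
HEXIM1: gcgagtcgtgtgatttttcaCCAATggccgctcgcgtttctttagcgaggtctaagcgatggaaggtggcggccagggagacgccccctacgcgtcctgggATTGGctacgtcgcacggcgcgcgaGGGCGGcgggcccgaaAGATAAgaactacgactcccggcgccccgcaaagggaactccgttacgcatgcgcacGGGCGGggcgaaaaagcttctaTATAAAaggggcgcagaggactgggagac
Of 35116 RefSeq promoters of this length, 9.17% hold the GATA motif, 6.34% the E-box, 32% the CCAAT box, 42.6% the GC box and 10.7% the TATA box on either strand, and the median promoter is 58% G or C. The HEXIM1 window is 62.4% G or C. Among member windows not shown, that of another BRD2 start holds a GATA motif 162 bases before it. That of a LARP7 start holds one at 117 bases, so the motif is not particular to HEXIM1. These matches are a description of the letters and were set against no binding data.

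HEXIM2, the paralog of HEXIM1 that can take its place in the complex, was at 3.06 and 2.89 FPKM with DMSO, at 5.30 and 3.59 FPKM with 2 µM CBP30 and at 2.64 and 2.94 FPKM with 5 µM CBP30. Its I-CBP112 samples were at 3.33 and 3.12 FPKM at 2 µM and at 2.47 and 2.73 FPKM at 5 µM. The highest values were thus those with 2 µM CBP30, which differed between the samples by more than the other conditions did from DMSO. The log2 difference of HEXIM2 was 0.44 with 2 µM CBP30, which did not pass (limma, adjusted p = 0.0507), and -0.07 with 5 µM CBP30, with an interval of -0.40 to 0.26. Without replicate 1 of 2 µM CBP30 the former was 0.21 (limma, adjusted p = 0.0941), and without replicate 2 it was 0.67 (adjusted p = 0.00101). The longest HEXIM2 transcript, of 1528 bases, is the shortest among the members, and replicate 1 of 2 µM CBP30 is the sample in which short transcripts were high. With the length trend removed the difference was smaller, 0.29, and was called (limma, adjusted p = 0.0360), but not when the replicate block was fitted as well. It was also called with a pseudocount of 0.1 (0.54, adjusted p = 0.0472) and with eBayes without the trend (adjusted p = 0.0497), in all in 4 of 19 alternatives. HEXIM2 shares 567 exon bases with HEXIM2-AS1 and 1026 with another antisense gene, and HEXIM1 shares 520 with HEXIM2-AS1, so these reads may not have been told apart.

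LARP7, which binds the end of the 7SK RNA, was at 24.2 and 25.6 FPKM with DMSO, at 23.7 and 26.5 FPKM with 2 µM CBP30 and at 24.5 and 26.3 FPKM with 5 µM CBP30. With I-CBP112 it was at 25.1 and 23.5 FPKM at 2 µM and at 25.9 and 24.8 FPKM at 5 µM. Every condition overlapped DMSO. With 5 µM CBP30 the interval of its log2 fold change was -0.14 to 0.19 (limma, adjusted p = 0.778), so a change as large as that of BRD2 lay outside it. LARP7 shares 1318 exon bases with the antisense host gene of the MIR302 cluster. MEPCE, which caps the 7SK RNA and completes the list of 7SK proteins, was at 37.2 and 36.4 FPKM with DMSO, at 51.1 and 41.5 FPKM with 2 µM CBP30 and at 35.3 and 34.1 FPKM with 5 µM CBP30. It rose by 0.32 on the log2 scale with 2 µM CBP30 (limma, adjusted p = 0.0344), and at 5 µM its log2 difference was -0.08 (adjusted p = 0.481). The higher sample with 2 µM CBP30 was replicate 1, which stood apart by transcript length. The alternatives were read for the members only, so the MEPCE call was not checked against that sample. Of the 4 genes of the list, 1 was higher and 0 lower with 5 µM CBP30, and 2 were higher and 0 lower with 2 µM CBP30. Of all genes, 21.2% and 15.9% were higher with 5 and 2 µM CBP30. With I-CBP112, 0 of the 4 were called in either direction, beside 7.12% of all genes at 5 µM and 1.6% at 2 µM.

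CDK9 (chromosome 9, 130547958 to 130553071, plus strand), the catalytic subunit of P-TEFb, was at 21.8 and 22.4 FPKM with DMSO, at 28.7 and 22.8 FPKM with 2 µM CBP30 and at 28.0 and 27.0 FPKM with 5 µM CBP30. The values with I-CBP112 were 23.7 and 23.3 FPKM at 2 µM and 25.2 and 26.3 FPKM at 5 µM. All treated samples stood above both DMSO samples, and the samples with 2 µM CBP30 were the most unlike each other. The log2 fold change of CDK9 with 5 µM CBP30 was 0.30 ± 0.10 (SE; limma, adjusted p = 0.0377). That call was made in 10 of 20 alternatives. It held without either sample of 2 µM CBP30 and was lost without any one of the other 8 samples, with adjusted p of 0.0621 to 0.154 and log2 fold changes of 0.28 to 0.33. With 5 µM I-CBP112 the log2 difference was 0.21, with an interval of -0.02 to 0.44 (limma, adjusted p = 0.266), and it was called without either sample of 2 µM CBP30 (adjusted p = 0.0118 and 0.0119). At 2 µM of CBP30 it was 0.20 (limma, adjusted p = 0.152), or 0.36 without replicate 2 (adjusted p = 0.000991) and 0.04 without replicate 1.

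Neither cyclin was called in a comparison with DMSO. CCNT1 (chromosome 12, 49082241 to 49110781, minus strand), the main cyclin of P-TEFb, was at 24.0 and 23.5 FPKM with DMSO, at 21.7 and 27.0 FPKM with 2 µM CBP30 and at 25.8 and 27.9 FPKM with 5 µM CBP30. It was at 24.2 and 24.6 FPKM with 2 µM I-CBP112 and at 24.4 and 25.3 FPKM with 5 µM I-CBP112. CCNT2 (chromosome 2, 135675805 to 135716912, plus strand), the alternative cyclin, was at 9.82 and 10.1 FPKM with DMSO, at 8.08 and 11.03 FPKM with 2 µM CBP30 and at 11.99 and 12.14 FPKM with 5 µM CBP30. For both cyclins the samples with 2 µM CBP30 lay on either side of DMSO and those with 5 µM CBP30 above it. With I-CBP112, CCNT2 was at 10.3 and 10.1 FPKM at 2 µM and at 10.5 and 10.0 FPKM at 5 µM. Neither cyclin passed the test with 5 µM CBP30, where the log2 difference was 0.17 for CCNT1 (interval -0.06 to 0.39; limma, adjusted p = 0.187) and 0.25 for CCNT2 (interval -0.03 to 0.53; adjusted p = 0.120). Without either sample of 2 µM CBP30, whose spread enters the fit, both were called at the same differences, CCNT1 with adjusted p of 0.0158 and 0.0160 and CCNT2 with 0.00149 and 0.00154 (limma). They were also called in a fit of DMSO and 5 µM CBP30 alone, CCNT1 with an adjusted p of 0.0486 and CCNT2 with 0.00978. With the length trend removed, the log2 differences were 0.10 for CCNT1 and 0.18 for CCNT2, and neither was called. The longest transcripts of CCNT1 and CCNT2, of 6915 and 6920 bases, are the longest among the members.

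BRD2, HEXIM1 and HEXIM2 were also called between the concentrations of CBP30. From 2 to 5 µM CBP30, 2 members were called higher and 1 lower, beside 38.9% of all genes tested. The share of members called is thus close to the background. BRD2 rose by 0.32 ± 0.05 on the log2 scale (limma, adjusted p = 0.00597) and HEXIM1 by 0.28 ± 0.07 (adjusted p = 0.0177), while HEXIM2 fell by 0.50 ± 0.14 (adjusted p = 0.0293). With the length trend removed, the step of BRD2 was 0.18 (adjusted p = 0.0225) and that of HEXIM2 -0.22 (adjusted p = 0.0867). The step of HEXIM2 was called in 7 of 19 alternatives. It was called without either sample of 2 µM CBP30 and lost without any one of the other 8 samples, with adjusted p of 0.0513 to 0.136. The step of HEXIM1 was lost without replicate 1 of 5 µM CBP30 (limma, adjusted p = 0.0874) or replicate 2 (0.0911). From 2 to 5 µM I-CBP112, limma called 0 members, also at an unadjusted p under 0.05, beside 0.0626% of all genes. The interval of that step was -0.13 to 0.11 for BRD2 and -0.08 to 0.23 for HEXIM1.

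Whether the step from 2 to 5 µM differed between the compounds was tested as an interaction, which was called for 4.94% of all genes and for 1 of the 8 members. For BRD2 the step with CBP30 exceeded that with I-CBP112 by 0.33 ± 0.07 on the log2 scale (limma, adjusted p = 0.04995), just under the threshold. It was called in 4 of 20 alternatives and was 0.17 with the length trend removed (adjusted p = 0.120). Without any one of the samples other than those of 2 µM CBP30 it was lost, with adjusted p of 0.0999 to 0.166. For HEXIM1 the difference between the steps was 0.21, with an interval of -0.01 to 0.42 (limma, adjusted p = 0.156).

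CBP30 and I-CBP112 were compared directly at each concentration. Among the 8 genes, at 2 concentrations, 3 comparisons were called. At 5 µM, 2 members were higher with CBP30 and 0 lower, beside 31.4% of all genes called. HEXIM1 was higher by 0.54 ± 0.07 on the log2 scale (limma, adjusted p = 0.00133) and BRD2 by 0.32 ± 0.05 (adjusted p = 0.00421). BRD3 differed by -0.15, with an interval of -0.29 to -0.00038 (limma, adjusted p = 0.115), CCNT2 by 0.22 (adjusted p = 0.199) and CDK9 by 0.09, with an interval of -0.14 to 0.32 (adjusted p = 0.498). Without either sample of 2 µM CBP30, BRD3 (adjusted p = 0.0478 and 0.0481) and CCNT2 (0.00393 and 0.00407) were called as well. At 2 µM, 1 member was higher with CBP30, beside 15.6% of all genes called. HEXIM1 was higher by 0.34 ± 0.07 (limma, adjusted p = 0.0191). That call was lost without replicate 1 of 2 µM I-CBP112 (adjusted p = 0.123) or replicate 2 (0.0546). BRD2 differed by -0.01 at 2 µM, with an interval of -0.13 to 0.11 (limma, adjusted p = 0.890).

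Ratios within a sample describe the balance of the transcripts and were not tested. The ratio of HEXIM1 to CDK9 was 0.411 and 0.408 with DMSO, 0.476 and 0.541 with 2 µM CBP30, and 0.570 and 0.591 with 5 µM CBP30. With I-CBP112 it was 0.407 and 0.453 at 2 µM and 0.428 and 0.400 at 5 µM, on either side of DMSO. In all 4 CBP30 samples the ratio of HEXIM1 to the kinase that it inhibits was above that of every other sample. The ratio of CCNT1 to CDK9 was 1.098 and 1.051 with DMSO and 0.919 and 1.03 with 5 µM CBP30, and it was farthest apart, at 0.756 and 1.19, between the samples with 2 µM CBP30. The ratio of BRD2 to BRD3 was 7.04 and 6.97 with DMSO, 8.54 and 8.38 with 2 µM CBP30 and 11.9 and 11.1 with 5 µM CBP30. With I-CBP112 it was 7.78 and 7.44 at 2 µM and 7.84 and 8.60 at 5 µM, above DMSO and below 5 µM CBP30.

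**Figure D3:**
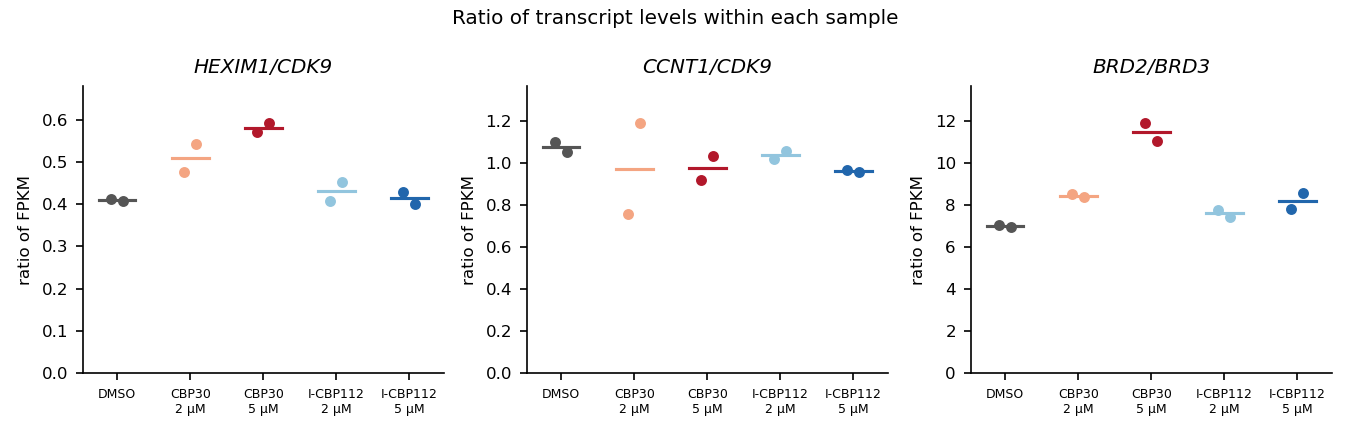
Ratio of FPKM values (y axis, from 0) within each sample for HEXIM1 over CDK9, CCNT1 over CDK9 and BRD2 over BRD3 in the 5 conditions (x axis). Points are samples and lines their mean. The ratio of BRD2 to BRD3 was 11.9 and 11.1 with 5 µM CBP30 and 7.04 and 6.97 with DMSO.

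Other transcripts known to rise with BET inhibition were listed with HEXIM1 and BRD2. Of the 6 genes of that list, with these members counted, 5 were called higher with 5 µM CBP30, 4 with 2 µM CBP30, 2 with 5 µM I-CBP112 and 2 with 2 µM I-CBP112, and 0 lower in any of these, with a median log2 fold change of 0.85, 0.48, 0.28 and 0.10 in that order. Of all genes tested, 21.2%, 15.9%, 3.84% and 0.868% were called higher in the same order of conditions, and their medians lay between -0.01 and 0.01. The list was drawn up with earlier results of these data known and holds the members HEXIM1 and BRD2. Its counts are therefore a description and no separate support. Called with 5 µM CBP30 were HEXIM1, BRD2, HIST2H2BE, HIST1H2BK and SERPINI1, and with 2 µM CBP30 the same genes without BRD2. With I-CBP112 only HIST2H2BE and HIST1H2BK were called. The histone H2B gene HIST2H2BE was at 15.2 and 16.8 FPKM with DMSO, at 61.9 and 56.1 FPKM with 2 µM CBP30, at 89.7 and 89.2 FPKM with 5 µM CBP30, at 31.8 and 32.3 FPKM with 2 µM I-CBP112 and at 53.4 and 50.4 FPKM with 5 µM I-CBP112. It was also called with I-CBP112, at log2 fold changes of 0.96 at 2 µM (limma, adjusted p = 0.00188) and 1.64 at 5 µM (adjusted p = 5.7e-05), beside 1.82 and 2.41 with the corresponding concentrations of CBP30. Whether its response to I-CBP112 differed from those of HEXIM1 and BRD2 was not tested. HIST1H2BK, another H2B gene, was at 1047 and 1026 FPKM with DMSO and at 3047 and 3070 FPKM with 5 µM CBP30, and rose by 0.70 with 2 µM I-CBP112 (limma, adjusted p = 0.0491), by 1.27 with 5 µM I-CBP112 (adjusted p = 0.00242), by 1.54 with 2 µM CBP30 and by 1.56 with 5 µM CBP30. Histone H2B genes have near-identical copies, so the reads assigned to these genes are uncertain. As polyadenylated RNA was sequenced, the values cover only the polyadenylated transcripts of these genes.

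SERPINI1, which codes for neuroserpin, an inhibitor of serine proteases, was at 3.42 and 4.04 FPKM with DMSO, at 5.24 and 6.01 FPKM with 2 µM CBP30 and at 8.25 and 7.91 FPKM with 5 µM CBP30. Its log2 rise was 0.49 at the lower concentration of CBP30 (limma, adjusted p = 0.0115) and 0.94 at the higher (adjusted p = 0.000346). I-CBP112 samples were at 3.31 and 3.96 FPKM at 2 µM and at 4.95 and 5.14 FPKM at 5 µM, where its log2 difference was 0.36 (adjusted p = 0.0840). SERPINI1 and HEXIM1 were thus called at the same conditions, both of CBP30. DCXR, a reductase of sugars and dicarbonyls, was at 57.7 and 57.9 FPKM with DMSO, at 104 and 59.8 FPKM with 2 µM CBP30 and at 74.2 and 77.1 FPKM with 5 µM CBP30, and was called in none of the 4 comparisons (smallest adjusted p = 0.168, limma).

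**Figure D4:**
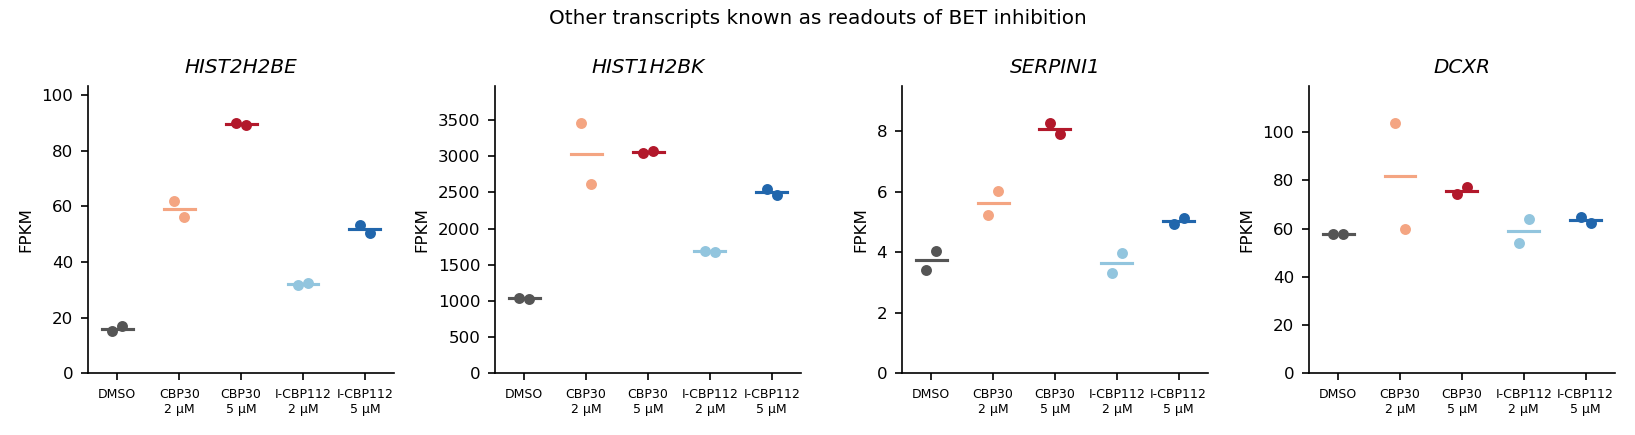
FPKM (y axis, from 0) of 4 other transcripts known to rise with BET inhibition in the 5 conditions (x axis), with points for samples and lines for their mean. HIST2H2BE was at 31.8 and 32.3 FPKM with 2 µM I-CBP112 and at 15.2 and 16.8 FPKM with DMSO, and SERPINI1 was at 8.25 and 7.91 FPKM with 5 µM CBP30 and at 3.42 and 4.04 FPKM with DMSO.

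The genes that work beside P-TEFb showed no common direction. Of 32 other elongation genes, which are MEPCE and the genes of 4 further lists, 7 were called higher and 8 lower with 5 µM CBP30, 4 higher and 5 lower with 2 µM CBP30, and 0 with either concentration of I-CBP112. These counts, 15 of 32 with 5 µM and 9 of 32 with 2 µM CBP30, are close to the shares of all genes called, 46.6% and 32.1%. With I-CBP112, 7.12% of all genes were called at 5 µM and 1.6% at 2 µM, so 0 of 32 says little about these genes. Their median log2 fold change with 5 µM CBP30 was -0.05, beside -0.01 over all genes. The counts of the single lists that follow, of 3 to 5 genes called, are to be read against the same 46.6%, of which 21.2% were higher and 25.4% lower. Fits with the length trend removed were read gene by gene for the members only. With 5 µM CBP30 the shifts by transcript length were -0.12 and -0.11 over the shortest and 0.11 over the longest. The changes of the list genes were not checked against these shifts. Of 9 genes of the super elongation complex, which carries active P-TEFb, 2 rose and 2 fell with 5 µM CBP30. ELL2, an elongation factor of that complex, went from 11.2 and 11.9 FPKM with DMSO to 19.5 and 19.9 FPKM with 5 µM CBP30, a log2 fold change of 0.72 (limma, adjusted p = 0.000297). The scaffold AFF4 rose by 0.58 (limma, adjusted p = 0.0384), and the reader of acylated histones MLLT1 fell by 0.31 (adjusted p = 0.00236). The related MLLT3, which is below the 5 FPKM required for naming and was chosen after its values were seen, fell by 1.05.

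Of the 6 genes of NELF and DSIF, the factors that hold the paused polymerase, 0 rose and 3 fell with 5 µM CBP30. The NELF subunit genes RDBP (NELFE) and WHSC2 (NELFA) fell by 0.59 (limma, adjusted p = 0.0100) and 0.58 (adjusted p = 0.00376), and TH1L (NELFCD) fell by 0.16 (adjusted p = 0.0290). RDBP was at 73.3 and 70.0 FPKM with DMSO and at 47.2 and 47.0 FPKM with 5 µM CBP30. Of the 7 genes of the PAF1 complex and SPT6, which travel with elongating polymerase, 2 rose and 1 fell, RTF1 by 0.46 and CTR9 by 0.29 upward and LEO1 by 0.18 downward. Of the 9 genes of the other transcription kinases and their cyclins, 3 rose and 2 fell. CCNH, the cyclin of the kinase CDK7 of TFIIH, fell by 0.79 (limma, adjusted p = 0.000242), from 57.1 and 57.7 FPKM with DMSO to 32.4 and 33.1 FPKM with 5 µM CBP30. CDK7 itself fell by 0.42 (limma, adjusted p = 0.00140), and the Mediator kinase CDK19 rose by 0.52 (adjusted p = 0.00472). CDK9 and CDK7, the kinases that act in turn on the polymerase, were thus called in opposite directions with 5 µM CBP30, and the call of CDK9 was made in 10 of 20 alternatives.

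**Figure D5:**
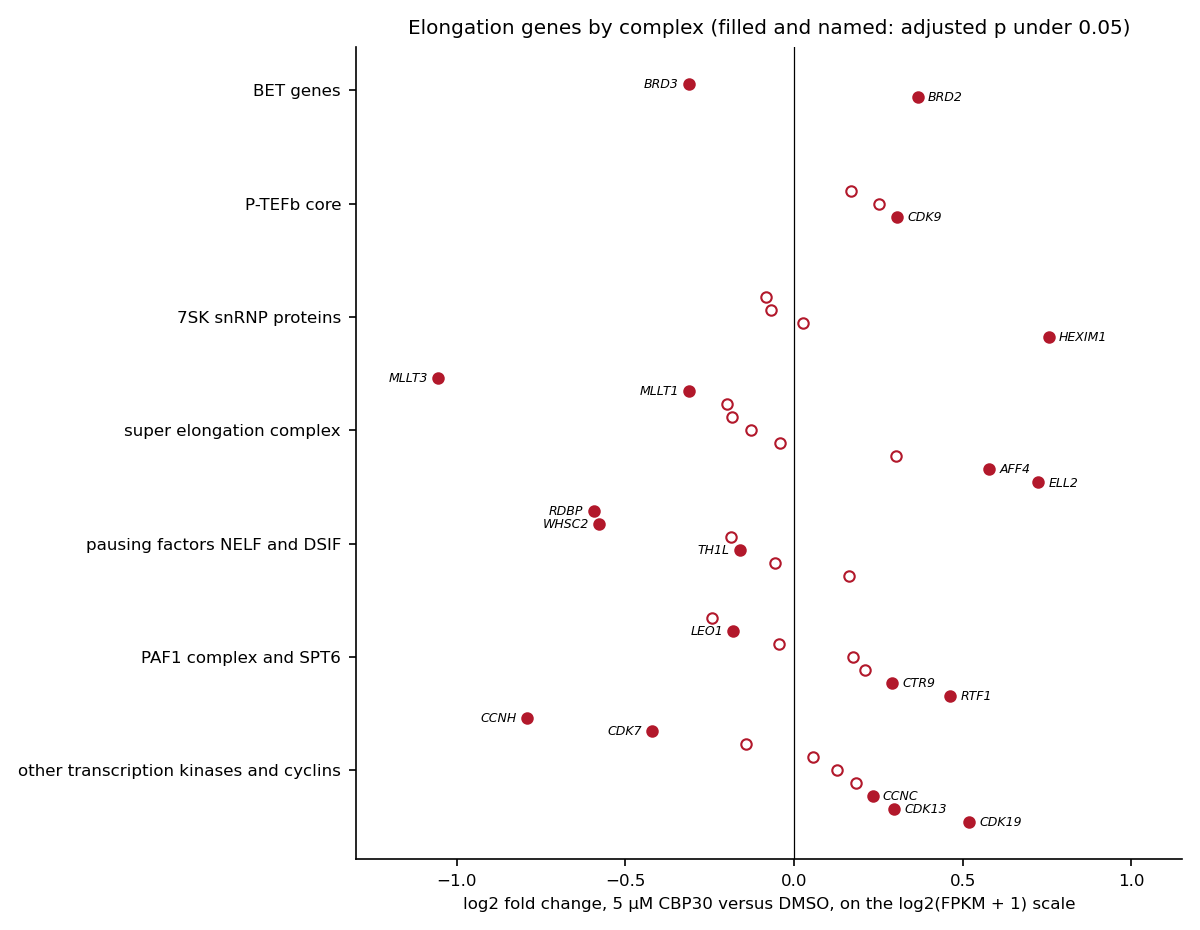
Log2 fold change with 5 µM CBP30 against DMSO on the log2(FPKM + 1) scale (x axis) of the tested genes of 7 lists (y axis). Each point is a gene, and filled, named points passed an adjusted p under 0.05. HEXIM1 had the highest value, 0.75, and MLLT3 the lowest, -1.05.

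Across the 10 samples, the genes most like HEXIM1 among 8997 genes averaging 5 FPKM or more were LPCAT1 (Pearson r = 0.993), GRB2 (0.993) and METTL7A (0.992), on log2(FPKM + 1). LPCAT1, a lysophospholipid acyltransferase, was at 20.6 and 20.5 FPKM with DMSO and at 38.4 and 38.9 FPKM with 5 µM CBP30. Those most like BRD2 were SNRK (0.987), ENTPD4 (0.986) and TIMELESS (0.982), which were likewise highest with 5 µM CBP30. Those most like HEXIM2 were PCIF1 (0.960), IFNGR2 (0.958) and SPSB3 (0.952), all highest in replicate 1 of 2 µM CBP30. Those most like CCNT1 were ZMYND11 (0.969), ZWILCH (0.959) and C18orf54 (0.942), all lowest in that sample. Between members, r was -0.90 for BRD3 and HEXIM1, 0.89 for CCNT1 and CCNT2 and 0.82 for BRD2 and HEXIM1. These values describe 10 samples that share conditions and libraries, and the differences of replicate 1 of 2 µM CBP30 by transcript length enter each of them.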

How the data were processed

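K562 cells were profiled by polyA RNA-seq in 10 samples, 2 for each of 5 conditions, made as stranded libraries and sequenced as single reads. The authors ran Nextpresso on hg19 and deposited 1 table of FPKM values with a column per sample and no pooling. The submitters' processing notes name FastQC, TopHat2 2.0.10, Bowtie 1.0.0, SAMtools 0.1.19, Cufflinks 2.2.1 and Cuffnorm. The annotation and the strand setting are not given in the sources used here. FPKM are scaled by library and length, so a change of a few abundant genes shifts the others. Precision rests on the spread between the 2 samples of a condition, pooled over the 5 conditions.

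Groups came from the sample labels, and 0 columns lacked a sample. The 12788 genes averaging 0.5 FPKM or more were tested with limma 3.58.1 (R 4.3.3) after adding 1 and taking log2 (all groups in 1 fit, eBayes with trend, Benjamini-Hochberg adjustment), and called at an adjusted p under 0.05. The script was tested on simulated data. Python 3.11.15 was used for tables and figures. Transcript lengths (the longest transcript) and positions came from GENCODE for hg19, and promoters from RefSeq.

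The members and lists were chosen with earlier results of these data known. Named genes were the 8 members, the up to 3 genes of each list with the largest change with 5 µM CBP30 among called genes reaching 5 FPKM in either group, all of the list of BET readouts, and the 3 genes most like HEXIM1, BRD2, HEXIM2 and CCNT1. Results were recomputed with quantile normalization, median centring, eBayes without the trend, a filter at 5 FPKM or none, a pseudocount of 0.1, only the groups compared, a replicate block, removal of the length trend by loess, the same with the block, and leaving out each sample. Other experiments of the study were not analysed here.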

Additional observations from a re-analysis of the deposited data

Results flagged for a closer look

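BRD2 rose by 0.32 from 2 to 5 µM CBP30 and differed by -0.01 from 2 to 5 µM I-CBP112, and the difference between those steps, tested as an interaction, was 0.33 on the log2(FPKM + 1) scale (limma, Benjamini-Hochberg adjusted p = 0.04995, just under 0.05). The 2 samples with 5 µM CBP30 stood at 108 and 105 FPKM, and the 6 other treated samples at 82.5 to 87.5 FPKM. With the length trend removed the difference was 0.17 (adjusted p = 0.120).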

How the results depend on the processing

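HEXIM1, BRD2 and BRD3 were called with 5 µM CBP30 against DMSO in 20 of 20 alternatives, with log2 fold changes of 0.74 to 0.81, 0.31 to 0.50 and -0.35 to -0.28, and HEXIM1 with 2 µM CBP30 in 19 of 20, the exception being the fit of only the groups compared (adjusted p = 0.0959). The count of members called with 2 µM CBP30 (2 as reported) was 1 with no filter, with median centring, with quantile normalization and with the length trend and the replicate block both accounted for, and 0 with only the groups compared. It was 3 with a pseudocount of 0.1 and with eBayes without the trend, where HEXIM2 was called as well, and 3 with the length trend removed, where BRD2 and HEXIM2 were called and BRD3 was not. The count was 1 (as reported, 0) with 5 µM I-CBP112 and 4 (as reported, 2) between the compounds at 5 µM once the length trend was removed. With only the groups compared it was 0 between the CBP30 concentrations (as reported, 3) and 0 between the compounds at 2 µM (as reported, 1). For the difference between the dose steps it was 0 (as reported, 1) with a pseudocount of 0.1, no filter, median centring, eBayes without the trend, only the groups compared, the replicate block, the length trend removed, and both of the latter together. Beyond the construction of each alternative, the cause was not tested.

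Leaving out 1 sample moved these counts to 1 to 5 with 2 µM CBP30, 0 to 2 with 5 µM I-CBP112, 1 to 5 between the CBP30 concentrations, 2 to 4 between the compounds at 5 µM, 0 to 6 at 2 µM and 0 to 5 for the dose steps. The highest counts came without replicate 2 of 2 µM CBP30 (at 5 µM, without either of its samples).

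Values that changed sign were those of LARP7, HEXIM2, CCNT1, CCNT2 and BRD2 in comparisons where they were not called, and none was called where its sign had changed. With the length trend removed, with or without the block, HEXIM2 with 5 µM CBP30 was 0.070, and with 2 µM CBP30 CCNT2 was 0.055 and LARP7 -0.019. BRD2 between the compounds at 2 µM was 0.086 in the same fits and 0.018 with median centring. Leaving out 1 sample gave LARP7 values of -0.020 to 0.076 with 5 µM CBP30, -0.066 to 0.087 with 2 µM CBP30, -0.012 to 0.061 with 5 µM I-CBP112 and -0.083 to 0.0096 with 2 µM I-CBP112. With 2 µM CBP30 it gave -0.12 to 0.18 for CCNT1 (called at 0.18, without replicate 1 of that group) and -0.27 to 0.13 for CCNT2 (called at -0.27, without its replicate 2), and for BRD2 between the compounds at 2 µM -0.053 to 0.029.

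Same-numbered samples deviated from their group means with correlations of -0.07 to 0.09, so no shared deviation was seen. Whether same-numbered cultures were handled together is not given and cannot be told from these values. A fit with the replicate block called 0 members for the dose steps, with the BRD2 difference of 0.33 at an adjusted p of 0.0732, and moved the other counts by less than 1.5 times. HEXIM2 could not be tested at a mean of 5 FPKM. With no read counts in the files, depth sets no floor or interval here.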
